A study of Mus musculus with 16 samples.

Results

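The genes described here are 10 transcriptional targets of p53 whose products take part in cell death: Bax, Bbc3, Pmaip1, Fas, Tnfrsf10b, Aen, Ei24, Perp, Apaf1 and Eda2r. They were chosen by name, as the rows of these 10 genes among the 31053 features of each library, and were followed across the 4 groups of the study and across cell classes named from marker genes. The study addressed how immune cells of a tumor respond to radiation therapy. Tumors of 2 mouse lines, the colorectal carcinoma MC38 and the pancreatic adenocarcinoma Panc02-SIY, which carries the model antigen SIY, were grown under the skin of C57BL/6J mice aged 6 to 8 weeks. The tumors were either left untreated or given 1 CT-guided dose of 12 Gy, and were taken 24 h later. Living CD45+ cells were enriched on beads, sorted and profiled by 10x single-cell RNA sequencing of transcript 3′ ends, with 4 libraries in each of the 4 groups (untreated MC38, irradiated MC38, untreated Panc02-SIY and irradiated Panc02-SIY). The design text gives 4 animals per group and the methods give 3, and neither ties a library to an animal, so p-values measure the spread between these libraries.

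The transcription factor p53 is held at a low level by the ubiquitin ligase Mdm2 and is released from it when DNA is broken, as ionizing radiation does. It then induces genes that halt the cell cycle and repair DNA, and genes that kill the cell. The killing branch has a mitochondrial arm, in which BH3-only proteins (Bbc3, also called PUMA, and Pmaip1, also called NOXA) free the pore-former Bax and released cytochrome c assembles the Apaf1 apoptosome, and a receptor arm of TNF receptor family members (Fas, Tnfrsf10b and Eda2r). Lymphocytes are known as highly radiosensitive cells that die by p53-dependent apoptosis, whereas macrophages are known as radioresistant.

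The members lie on 6 autosomes and the X chromosome of mm10 (GENCODE vM21 gene spans), 3 of them on chromosome 7: Bax at chr7:45461697-45466898 (minus strand), Bbc3 at chr7:16308393-16318205 and Aen at chr7:78895854-78911209 (both plus strand). Promoter windows of 300 bases, from 250 before to 50 after a RefSeq transcription start (GRCm38.p6, the mm10 sequence), were at hand for 7 members, in 10 windows, and were searched on both strands for the consensus half-site of p53. A half-site match was found in windows of 3 members, Bax, Aen and Ei24, and in none of the windows of Bbc3 (3 windows), Fas, Apaf1 and Eda2r. Of all 32851 windows of the table, 2745 (8.36%) held a match. This share is per window, whereas the members are counted per gene with up to 3 windows each, so the shares are not directly comparable. A window with a match is shown for each of these genes, as the windows in which the searched letters occur, with the matched letters in capitals and read 5′ to 3′ on the gene's strand. The genes without a match that were tested (Bbc3, Fas and Apaf1) rose in the results that follow as these genes did. The windows are Bax at chr7:45466849-45467148 (minus strand, match from 201 bases before the start), Aen at chr7:78895808-78896107 (plus strand, match from 121 bases before the start; a second, overlapping Aen window at chr7:78895677-78895976 holds the same letters) and Ei24 at chr9:36797285-36797584 (minus strand, match from 10 bases before the start). A match describes letters in the window and is not a measured binding site.
Bax: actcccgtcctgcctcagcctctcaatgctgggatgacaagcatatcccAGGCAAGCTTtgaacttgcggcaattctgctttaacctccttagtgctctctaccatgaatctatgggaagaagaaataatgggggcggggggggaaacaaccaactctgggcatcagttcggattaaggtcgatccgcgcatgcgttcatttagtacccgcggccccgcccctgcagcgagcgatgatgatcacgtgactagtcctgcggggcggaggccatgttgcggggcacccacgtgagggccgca
Aen: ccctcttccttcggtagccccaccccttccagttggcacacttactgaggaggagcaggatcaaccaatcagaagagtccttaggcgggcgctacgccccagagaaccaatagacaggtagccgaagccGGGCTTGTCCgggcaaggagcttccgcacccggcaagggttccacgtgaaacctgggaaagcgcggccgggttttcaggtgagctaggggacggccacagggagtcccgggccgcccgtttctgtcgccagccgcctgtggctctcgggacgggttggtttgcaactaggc
Ei24: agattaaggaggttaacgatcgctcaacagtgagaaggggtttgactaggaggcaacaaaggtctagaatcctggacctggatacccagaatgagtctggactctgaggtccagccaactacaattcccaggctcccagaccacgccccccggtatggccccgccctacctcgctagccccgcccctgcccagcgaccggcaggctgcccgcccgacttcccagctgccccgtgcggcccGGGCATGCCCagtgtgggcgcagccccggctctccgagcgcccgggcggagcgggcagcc

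Cell barcodes recurred between libraries of the same tumor. In MC38 the median overlap of 2 libraries was 964.5 barcodes, or 83.3% of those in the smaller one. In Panc02-SIY it was 82 barcodes (5.54%), and between the tumors it was 0, with at most 0.298% shared by any pair. Each barcode was therefore kept only in the library of its tumor that held most of its UMIs (unique molecular identifiers, counted molecules). This left 20768 of 28678 barcodes, 1327 untreated and 1305 irradiated from MC38 and 9405 and 8731 from Panc02-SIY. The loss fell mostly on MC38, where 2632 of 9843 barcodes were kept, against 18136 of 18835 in Panc02-SIY. Kept barcodes held 42.8% to 86.4% of a library's UMIs in MC38 and at least 99.0% in Panc02-SIY. Kept UMIs per library ran from 1385711 to 8500889 in MC38 and from 5275195 to 43708746 in Panc02-SIY. With all barcodes kept, 91 of 106 called values of the members kept their direction and call, 11 lost the call and 4 reversed, the 4 all in macrophages. Counts were summed per library, and levels are in CPM, the UMIs of a gene scaled to the TMM-adjusted UMI total of the summed barcodes. A gene is said to rise, fall or differ where edgeR's quasi-likelihood test gave a Benjamini-Hochberg adjusted p below 0.1 over all genes tested and the fold change was above 1.3. In these sums, more cells of a class and more RNA per cell cannot be told apart. The T cell share of barcodes was 33.2% ± 2.47 (SD, n = 4) in untreated and 25.5% ± 5.98 in irradiated Panc02-SIY libraries, while the shares of monocytes (2.49% ± 1.59 and 7.05% ± 1.32), neutrophils (7.72% ± 2.21 and 13.2% ± 3.605) and NK cells (9.55% ± 4.09 and 15.3% ± 3.14) were higher after radiation by their means. These are shares of all kept barcodes, of which 35.2% ± 2.44 untreated and 26.3% ± 5.98 irradiated were left without a class name in Panc02-SIY. An unnamed cluster that raised 6 of 8 T cell markers held 713 untreated and 786 irradiated Panc02-SIY barcodes. The part of the class shares in the values over all CD45+ barcodes was not tested.

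Over all CD45+ barcodes, 8 of the 10 members rose after 12 Gy in MC38 and the same 8 rose in Panc02-SIY. They were Bax, Bbc3, Pmaip1, Fas, Tnfrsf10b, Aen, Ei24 and Apaf1, and Bbc3 had the largest fold change of the 8 in Panc02-SIY (3.51-fold) and Tnfrsf10b and Bbc3 in MC38 (3.37-fold and 3.26-fold). Perp was tested and did not pass, and Eda2r had too few UMIs for the test. Of 12447 genes tested, 7.24% rose in MC38 and 7.69% in Panc02-SIY. For each of the 8, every irradiated library lay above every untreated library of the same tumor, which held for 10.9% of all genes in MC38 and 8.4% in Panc02-SIY. The median log2 fold change of the 9 members tested was 1.06 in MC38 and 0.94 in Panc02-SIY, against 0.04 and −0.03 over all genes tested.

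**Figure D1:**
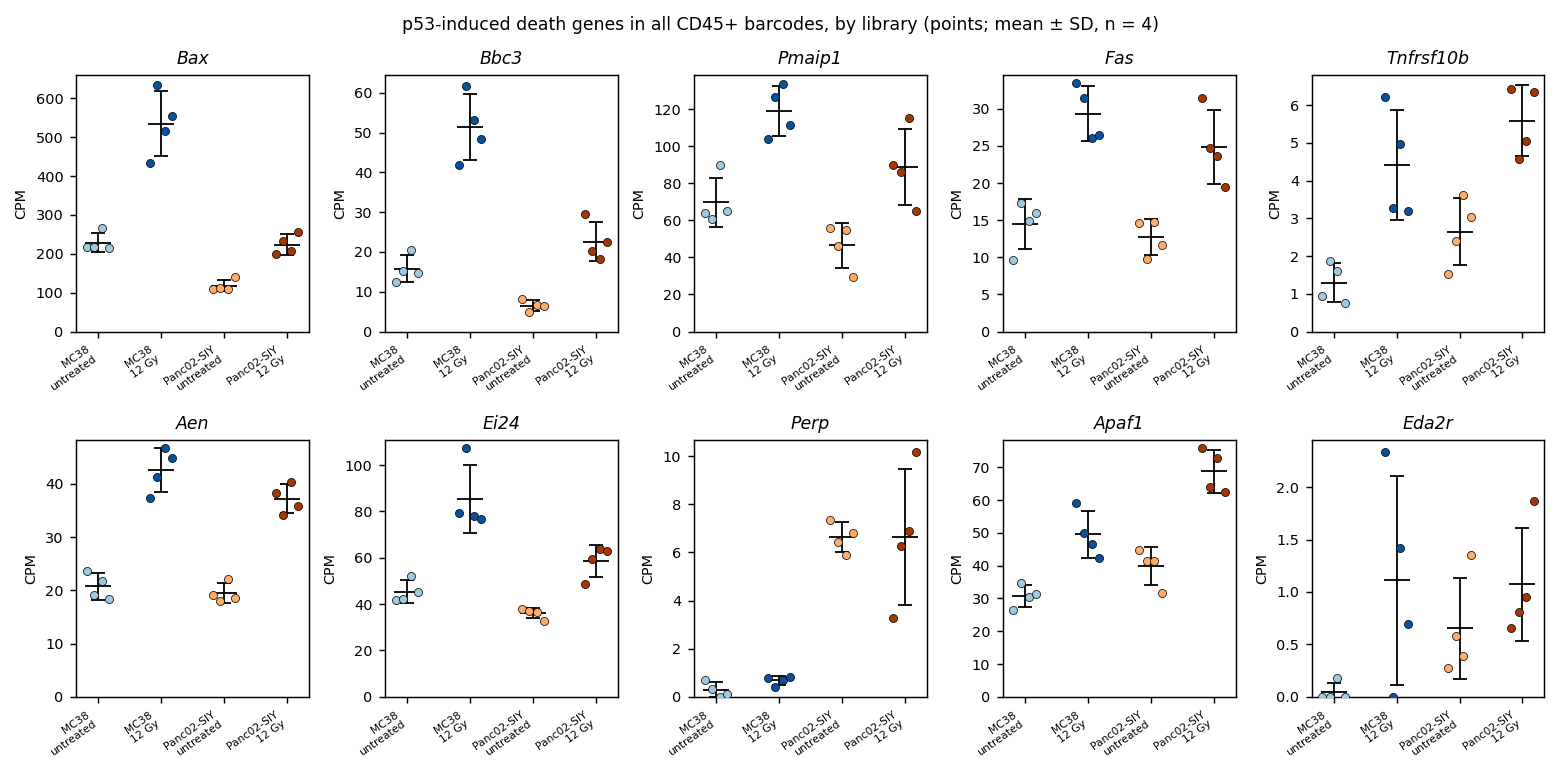
Level of each of the 10 genes in CPM (vertical axes, linear from 0) in all CD45+ barcodes, with 1 point per library and the mean ± SD of each group of 4 libraries. The irradiated points lie above all untreated points of the same tumor for 8 genes, while Perp and Eda2r overlap.

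Bax, which permeabilizes the outer mitochondrial membrane, had 215, 217, 218 and 266 CPM in untreated and 435, 515, 554 and 635 CPM in irradiated libraries of MC38 (each set in ascending order). In Panc02-SIY it had 109, 110.5, 113 and 140.3 CPM in untreated and 199.7, 206, 232 and 257 CPM in irradiated libraries. The groups were well apart in both tumors, with log2 fold changes (± SE) of 1.23 ± 0.13 (edgeR adjusted p = 4.05e-05) in MC38 and 0.92 ± 0.12 (edgeR adjusted p = 0.000379) in Panc02-SIY. Bbc3, the BH3-only protein that binds all anti-apoptotic BCL2 proteins, went from 12.5, 14.8, 15.2 and 20.5 CPM to 41.99, 48.5, 53.2 and 61.8 CPM in MC38. Its Panc02-SIY libraries had 4.85, 6.32, 6.59 and 8.200 CPM untreated and 18.2, 20.2, 22.6 and 29.5 CPM irradiated. The irradiated libraries stood far above the untreated ones in both tumors, and the log2 fold changes were 1.70 ± 0.19 (edgeR adjusted p = 5.74e-05) and 1.81 ± 0.18 (edgeR adjusted p = 4.36e-05).

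Pmaip1, the BH3-only protein that binds Mcl1, had 60.98, 64.1, 64.8 and 89.7 CPM in untreated and 104, 111, 126 and 134 CPM in irradiated libraries of MC38. The values in Panc02-SIY were 29.6, 46.3, 54.6 and 55.9 CPM and 64.9, 86.3, 89.7 and 115 CPM. These groups came closer to each other than those of Bbc3, with log2 fold changes of 0.77 ± 0.20 (edgeR adjusted p = 0.0286) and 0.94 ± 0.20 (edgeR adjusted p = 0.00578). With all barcodes kept, the MC38 value was 0.57 with an adjusted p of 0.139 by edgeR, and Pmaip1 no longer passed there. Apaf1, the scaffold that activates caspase-9, had 26.5, 30.6, 31.3 and 34.7 CPM in untreated and 42.4, 46.6, 49.9 and 59.1 CPM in irradiated libraries of MC38. In Panc02-SIY the levels were 31.7, 41.4, 41.5 and 44.9 CPM and 62.5, 63.99, 72.9 and 75.9 CPM. Apaf1 rose less than Bbc3 in both tumors by point estimate, by 0.66 ± 0.13 (edgeR adjusted p = 0.00525) and 0.79 ± 0.12 (edgeR adjusted p = 0.000793) on the log2 scale. Ei24, a membrane protein of the endoplasmic reticulum, went from 41.6, 42.4, 45.4 and 52.3 CPM to 76.9, 78.04, 79.3 and 107 CPM in MC38 and from 32.8, 36.4, 36.9 and 37.8 CPM to 48.6, 59.5, 62.9 and 63.6 CPM in Panc02-SIY. Its log2 fold changes were 0.90 ± 0.12 (edgeR adjusted p = 0.000403) and 0.71 ± 0.12 (edgeR adjusted p = 0.00122). Aen, a nuclease that digests DNA in dying cells, had 18.3, 19.2, 21.8 and 23.6 CPM in untreated and 37.3, 41.3, 44.9 and 46.8 CPM in irradiated libraries of MC38. The narrow groups of Aen were 17.98, 18.6, 19.04 and 22.2 CPM and 34.2, 35.9, 38.4 and 40.4 CPM in Panc02-SIY, and its log2 fold changes were 1.06 ± 0.11 (edgeR adjusted p = 4.15e-05) and 0.94 ± 0.10 (edgeR adjusted p = 8.51e-05).

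Among the receptors, Fas, which is triggered by the ligand Fasl, had 9.696, 14.8, 15.98 and 17.3 CPM in untreated and 26.01, 26.5, 31.5 and 33.4 CPM in irradiated libraries of MC38 and 9.75, 11.6, 14.6 and 14.8 CPM and 19.4, 23.7, 24.7 and 31.4 CPM in Panc02-SIY. Every irradiated library held more Fas than any untreated one of its tumor, with log2 fold changes of 1.00 ± 0.19 (edgeR adjusted p = 0.00515) and 0.97 ± 0.18 (edgeR adjusted p = 0.00238). Tnfrsf10b, the mouse receptor for the death ligand TRAIL (Tnfsf10), was scarce, with 0.767, 0.946, 1.61 and 1.86 CPM in untreated and 3.21, 3.27, 4.97 and 6.22 CPM in irradiated MC38 libraries. In Panc02-SIY it had 1.53, 2.39, 3.04 and 3.61 CPM and 4.57, 5.04, 6.34 and 6.42 CPM. Its log2 fold changes were 1.75 ± 0.37 (edgeR adjusted p = 0.00855) and 1.05 ± 0.28 (edgeR adjusted p = 0.0196), with the largest errors of the 8 genes that rose.

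Eda2r, the receptor of the ectodysplasin isoform A2, had 178 UMIs in the kept barcodes of all 16 libraries. The untreated MC38 libraries held 1 UMI and the irradiated ones 14, a ratio of 17.9 after scaling by total UMIs (95% counting interval 2.72 to 756), with 0 UMIs in 1 of the 4 irradiated libraries. Eda2r passed the filter on low counts in 9 alternative settings only, and in 7 of the 9 it passed the test as higher in irradiated MC38. These settings reuse the same few UMIs of MC38, so the 7 calls add no support for a rise. The Panc02-SIY libraries held 79 and 84 UMIs. Of the 178 UMIs, 147 (82.6%) lay in 1 cluster of 234 barcodes, found only in Panc02-SIY, that carried 6 of 6 fibroblast markers and 32.9 CPM of Ptprc, the gene of CD45, against 782 to 2793 CPM in the immune classes. In the libraries with at least 10 barcodes of this fibroblast-like cluster, Eda2r had 9.16 and 9.51 CPM untreated and 23.3 and 26.3 CPM irradiated, and with 2 libraries per group no test was made. This cluster also held 24.9% of all Tnfrsf10b UMIs. Without its barcodes the same 8 members rose in Panc02-SIY, and the log2 fold change of Tnfrsf10b there was 1.36.

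Perp, a membrane protein with a role in cell adhesion as well as in p53-dependent death, had 0, 0.128, 0.310 and 0.709 CPM in untreated and 0.409, 0.709, 0.778 and 0.836 CPM in irradiated libraries of MC38. In Panc02-SIY it had 5.89, 6.42, 6.82 and 7.37 CPM untreated and 3.29, 6.26, 6.87 and 10.2 CPM irradiated. The groups overlapped in both tumors, with log2 fold changes of 1.51 ± 0.74 (edgeR adjusted p = 0.221) and 0.041 ± 0.30 (edgeR adjusted p = 0.962).

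**Figure D2:**
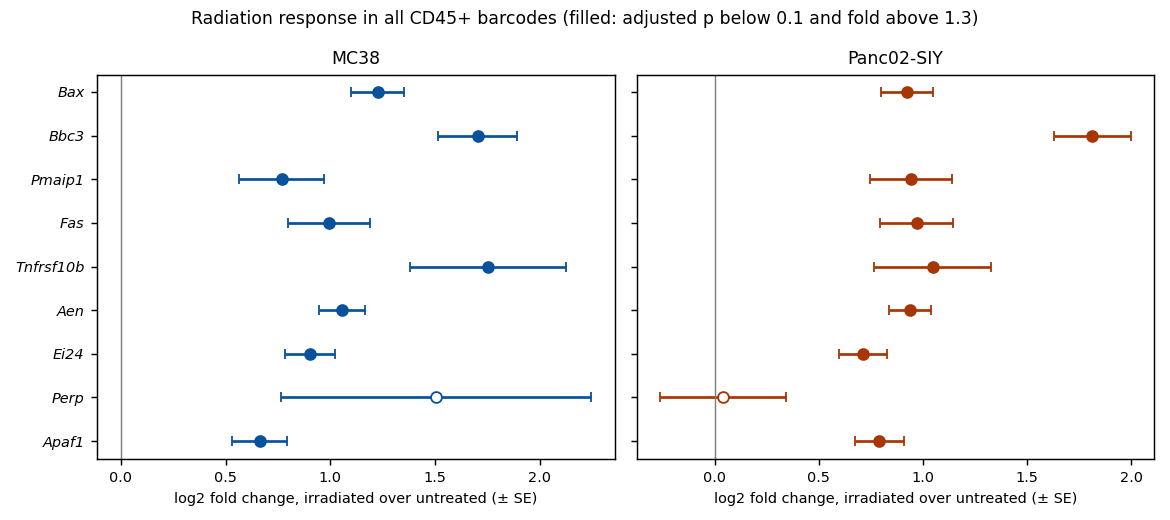
Log2 fold change, irradiated over untreated, ± SE (horizontal axes) of the 9 genes tested in all CD45+ barcodes of MC38 (left) and Panc02-SIY (right), with filled points for genes that passed the test. In each tumor 8 filled points lie right of 0, and Perp is the open point.

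The sizes of the radiation response were compared between the tumors with an interaction term. None of the 9 members differed by edgeR, none had an unadjusted p below 0.05 and none passed by DESeq2, while 0.345% of genes tested differed. The difference, MC38 response minus Panc02-SIY response on the log2 scale, was 0.30 (2 SE interval −0.048 to 0.65) for Bax, −0.11 (2 SE interval −0.63 to 0.41) for Bbc3 and 0.12 (2 SE interval −0.18 to 0.42) for Aen. It was less well bounded for Tnfrsf10b, 0.71 (2 SE interval −0.22 to 1.64), and for Perp, 1.47 (2 SE interval −0.13 to 3.06). These intervals leave room for a Bax response that is 0.65 larger in MC38 and for a Bbc3 response that is 0.63 larger in Panc02-SIY.

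The levels themselves differed between the tumors before treatment. Bax, Bbc3 and Pmaip1 were higher in untreated MC38 than in untreated Panc02-SIY libraries, by log2 values of 0.95 ± 0.13 (edgeR adjusted p = 6.09e-06) for Bax, 1.31 ± 0.19 (edgeR adjusted p = 2.03e-05) for Bbc3 and 0.60 ± 0.20 (edgeR adjusted p = 0.0164) for Pmaip1. Tnfrsf10b and Perp were lower in MC38, with log2 values of −1.12 ± 0.35 (edgeR adjusted p = 0.00991) and −4.70 ± 0.51 (edgeR adjusted p = 7.7e-07). The share of all genes that differed between the untreated tumors was 61.1%, and 5 of 9 members is near that share. After 12 Gy, Bax (1.26 ± 0.13), Bbc3 (1.204 ± 0.18), Pmaip1 (0.42 ± 0.20) and Ei24 (0.53 ± 0.12) were higher and Perp (−3.23 ± 0.46) and Apaf1 (−0.50 ± 0.12) lower in MC38, where 58.5% of all genes differed. The tumors differed in makeup by named class. Macrophages were 61.9% ± 5.37 of untreated MC38 and 6.08% ± 4.71 of untreated Panc02-SIY barcodes, and T cells 5.85% ± 1.31 and 33.2% ± 2.47. These shares leave out an unnamed cluster of low UMIs that raised 8 of 10 macrophage markers. It held 14 untreated MC38 and 1325 untreated Panc02-SIY barcodes. Without the fibroblast-like barcodes, found only in Panc02-SIY, the untreated difference of Tnfrsf10b was −0.67 and did not pass (edgeR adjusted p = 0.111), that of Apaf1 passed at −0.47 (edgeR adjusted p = 0.00162), and the irradiated difference of Pmaip1 was 0.34 and did not pass. The call for Pmaip1 in the irradiated tumors was also lost with all barcodes kept. The part of the other classes in these level differences was not tested over all barcodes.

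Cell classes were named from markers by clustering without the members and the pathway genes, and each class name stands for barcodes that carry that pattern (T cell-like, macrophage-like and so on). They covered 14674 of the 20768 barcodes, and 6094 in 7 clusters stayed unnamed. Of these, 1951 (14 untreated and 10 irradiated from MC38, 1325 and 602 from Panc02-SIY) lay in a cluster that raised 8 of 10 macrophage markers at low UMIs. Another 1545 lay in a cluster that raised 6 of 8 T cell markers but was led by markers of another class. The others raised too few markers of any class, or those of fibroblasts and endothelial cells alike. Summed CPM of the 8 T cell markers was 5886 in the T cell class, where the 10 macrophage markers summed to 256. In MC38 the T cell and macrophage classes had enough barcodes for a test of the radiation response, with 10 to 41 and 76 to 378 barcodes per library. Conventional dendritic cells and NK cells of MC38 were fitted in some alternative settings only. Bax was called there in 15 of 15 and 16 of 16 such settings, and no other member was. These settings reuse the same libraries, and in the main setting 2 irradiated MC38 libraries held at least 10 barcodes of each class. In Panc02-SIY, 7 classes did, and the T cells there were also divided into CD8 T cells, conventional CD4 T cells and regulatory T cells (Treg).

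In MC38 macrophages all 8 members tested rose (5.78% of genes rose), and irradiated and untreated libraries did not overlap for any of the 8 (9.32% of genes). Bbc3 went from 10.7, 14.8, 16.3 and 21.1 CPM to 41.7, 46.9, 53.001 and 62.2 CPM and Bax from 215, 219.6, 220.3 and 269.5 CPM to 458, 508, 547 and 626 CPM. The log2 fold changes were 1.70 ± 0.17 (edgeR adjusted p = 3.4e-07) for Bbc3 and 1.21 ± 0.13 (edgeR adjusted p = 8.52e-07) for Bax, close to those over all CD45+ barcodes of MC38, most of which are macrophages. The receptors also rose in these macrophages, Tnfrsf10b by 1.86 ± 0.44 and Fas by 1.07 ± 0.22, as did Aen (1.10 ± 0.14), Ei24 (0.85 ± 0.15), Pmaip1 (0.69 ± 0.18) and Apaf1 (0.67 ± 0.17). Perp had 0 UMIs in the MC38 macrophages.

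Panc02-SIY macrophages, with 18 to 566 barcodes per untreated library and 51 to 429 per irradiated library, had 4 of 8 members called higher (2.36% of genes). Bbc3 went from 0, 6.72, 8.497 and 8.800 CPM to 22.6, 23.01, 24.3 and 30.02 CPM and Bax from 141, 154, 173 and 184 CPM to 216, 263, 286 and 307 CPM. Both separated the groups, with log2 fold changes of 1.61 ± 0.24 (edgeR adjusted p = 0.000437) and 0.75 ± 0.14 (edgeR adjusted p = 0.00572). Fas (1.11 ± 0.32, edgeR adjusted p = 0.0632) and Pmaip1 (0.80 ± 0.22, edgeR adjusted p = 0.0672) passed with overlapping groups, and their calls were lost in 12 and 19 of 32 alternative settings. The call for Bbc3 was lost in 2 of 32 settings, with all barcodes kept (2.43, adjusted p = 0.541 by edgeR) and with 10 principal components (0.58, adjusted p = 0.794), and that for Bax in 1, with all barcodes kept (0.89, adjusted p = 0.296). With all barcodes kept, Pmaip1 had −0.052 in these macrophages, and with 10 principal components −0.22. Tnfrsf10b (1.17 ± 0.55, edgeR adjusted p = 0.3) did not pass, nor did Aen (0.45 ± 0.18, edgeR adjusted p = 0.21), Ei24 (0.38 ± 0.18, edgeR adjusted p = 0.323) and Apaf1 (0.46 ± 0.19, edgeR adjusted p = 0.23). The macrophages of the tumors lay in different clusters, those of MC38 mostly in clusters 6, 12 and 21 (led by Ccl12 and Arg1, Stab1 and Mmp12) and those of Panc02-SIY mostly in clusters 5 and 22 (led by Fcgr4 and Cd300e). Of the clusters with low UMIs, cluster 21 (median UMIs 0.163 of the library's) was kept in the class. It held 73 untreated and 76 irradiated MC38 barcodes and 9 and 20 of Panc02-SIY. The unnamed cluster with 8 of 10 macrophage markers (0.1835) was left out, with 14 and 10 MC38 and 1325 and 602 Panc02-SIY barcodes. The class thus differs in makeup between the tumors, and the part of this in their comparison was not tested. The response of macrophages did not differ between the tumors by the interaction test for any of the 8 members (edgeR; 0.0918% of genes did), with Bax and Aen at an unadjusted p below 0.05 and none passing by DESeq2. Over the alternative settings, this difference of Bax (MC38 minus Panc02-SIY) ran from −2.12 to 0.55, so its sign was not stable. It passed in 1 of 32 settings, with 10 principal components (adjusted p = 0.0482 by edgeR). Untreated macrophages of MC38 had more Bax (0.51 ± 0.14, edgeR adjusted p = 0.00355) and more Bbc3 (0.99 ± 0.23, edgeR adjusted p = 0.000851) than those of Panc02-SIY, and 4 of 8 members differed there, Pmaip1 and Fas also being higher, against 48.9% of all genes. With all barcodes kept, Bbc3 and Fas did not pass between the untreated macrophages, and Pmaip1 was lower in those of MC38 (−0.95). In T cells, 0 of 9 members differed between the untreated tumors and 0 of 9 between the irradiated ones (1234 and 1231 of 10034 genes did). In untreated conventional dendritic cells, with 3 MC38 libraries of at least 10 barcodes, 0 of 7 members differed (925 of 9859 genes did).

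The T cells of Panc02-SIY had the largest Bbc3 response, by point estimate, of the 6 classes in which it was tested (all but B cells). Bbc3 had 1.56, 1.98, 2.82 and 4.17 CPM in untreated and 20.96, 21.3, 22.5 and 32.6 CPM in irradiated T cells, a 10.2-fold rise (log2 fold change 3.35 ± 0.33, edgeR adjusted p = 5.83e-08). Bax went from 122, 125, 131 and 149 CPM to 306, 326, 347 and 378 CPM (1.36 ± 0.19, edgeR adjusted p = 3.44e-05). Untreated T cells had the lowest mean Bbc3 of the 7 classes, and irradiated T cells the highest mean Bax. Of the 9 members tested, 7 rose in these T cells, where 1.79% of genes did. Tnfrsf10b rose from 1.14, 1.56, 1.699 and 2.82 CPM to 5.201, 8.33, 8.75 and 14.1 CPM (2.205 ± 0.36, edgeR adjusted p = 0.000458). Aen (1.40 ± 0.18, edgeR adjusted p = 5.77e-06), Fas (1.29 ± 0.26, edgeR adjusted p = 0.00672), Ei24 (1.18 ± 0.14, edgeR adjusted p = 2.08e-06) and Apaf1 (0.84 ± 0.16, edgeR adjusted p = 0.00205) rose as well. Pmaip1 had 23.3, 32.9, 42.6 and 46.7 CPM and 67.5, 71.3, 89.7 and 97.2 CPM, which do not overlap, and did not pass (1.18 ± 0.34, edgeR adjusted p = 0.112). With the replicate number as a block it passed (adjusted p = 0.0282 by edgeR). Perp had 12.3, 14.6, 15.9 and 17.6 CPM and 5.28, 17.8, 21.97 and 38.1 CPM, which overlap (0.59 ± 0.31, edgeR adjusted p = 0.37).

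The CD8 T cells made up most of the T cells of Panc02-SIY, with 2678 untreated and 1779 irradiated barcodes, and 8 of 9 members rose in them (2.84% of genes). Their Bbc3 went from 0.476, 1.18, 1.37 and 1.74 CPM to 14.9, 16.4, 20.01 and 21.1 CPM, 13.8-fold (3.78 ± 0.27, edgeR adjusted p = 2.84e-07), and Tnfrsf10b from 0.152, 0.951, 1.51 and 1.95 CPM to 3.58, 4.86, 6.58 and 7.17 CPM (2.26 ± 0.47, edgeR adjusted p = 0.0149). Pmaip1 passed in the CD8 T cells, by 1.2005 ± 0.21 (edgeR adjusted p = 0.013). In conventional CD4 T cells, with 33 to 82 barcodes per library, 2 of 7 members rose (0.27% of genes), Bax by 0.95 ± 0.20 (edgeR adjusted p = 0.0244) and Apaf1 by 1.14 ± 0.28 (edgeR adjusted p = 0.0855). The call for Apaf1 held in 22 of 32 alternative settings and that for Bax in 31 of 32. In Treg, with 3 untreated libraries of at least 10 barcodes, Bax rose (1.46 ± 0.29, edgeR adjusted p = 0.0161) as 1 of 7 members (0.112% of genes). Bbc3 had 3.91, 5.38, 5.92 and 16.7 CPM and 3.94, 20.97, 41.4 and 52.3 CPM in conventional CD4 T cells (1.97 ± 0.62, edgeR adjusted p = 0.224) and did not pass.

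Within the Panc02-SIY T cells, each of the 5 clusters of the class had more Bbc3 after radiation. Pooled over libraries, Bbc3 went from 1.14 CPM (18 UMIs) to 17.3 CPM (177 UMIs) in the largest CD8 cluster. In the cluster led by cell cycle genes (Mki67, Top2a) it went from 1.53 to 25.7 CPM, and in the cluster led by Foxp3, Il2ra and Ctla4 from 7.79 to 33.4 CPM. Cluster 3, led by Ly6c2, S1pr1 and Tcf7, carried 6 of 8 T cell markers and stayed unnamed because markers of another class led it. Its pooled Bbc3 was 4.12 CPM untreated (22 UMIs) and 45.7 CPM irradiated (197 UMIs), and its Bax 104 and 261 CPM. These pooled values have no replicates and no test.

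MC38 held few T cells, 74 untreated and 95 irradiated barcodes, and 2 of 9 members rose in them (0.359% of genes). Bax had 66.7, 128, 134 and 267 CPM untreated and 298, 339.6, 375 and 446 CPM irradiated (1.202 ± 0.25, edgeR adjusted p = 0.0298). Ei24 passed near the threshold (1.05 ± 0.28, edgeR adjusted p = 0.0933), and its call was lost in 16 of 31 alternatives. Bbc3 had 0, 0, 0 and 23.3 CPM untreated and 0, 35.1, 38.6 and 47.96 CPM irradiated, with 3 untreated libraries and 1 irradiated library at 0, and did not pass (2.04 ± 0.73, edgeR adjusted p = 0.224). All 9 fold changes were above 1 in MC38 T cells, and none differed from those of Panc02-SIY T cells by the interaction test (edgeR; 0% of genes did), none at an unadjusted p below 0.05 and none by DESeq2.

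Natural killer (NK) cells of Panc02-SIY had 5 of 8 members called higher (1.5% of genes). Bax went from 90.2, 92.6, 96.9 and 106 CPM to 147, 197, 198 and 216 CPM (0.97 ± 0.13, edgeR adjusted p = 2.99e-05) and Aen from 20.6, 22.6, 26.2 and 27.5 CPM to 38.96, 42.1, 43.1 and 46.3 CPM (0.80 ± 0.17, edgeR adjusted p = 0.0156). Both were separate between the groups, as were Ei24 (0.56 ± 0.14, edgeR adjusted p = 0.0381) and Apaf1 (0.65 ± 0.16, edgeR adjusted p = 0.0275). Bbc3 had 11.5, 12.4, 12.9 and 26.2 CPM untreated and 23.2, 26.9, 31.6 and 32.8 CPM irradiated (0.90 ± 0.24, edgeR adjusted p = 0.0524), and 1 untreated library lay within the irradiated range. Of the alternative settings, Bax was called in 32 of 32, Aen in 30 of 32, Apaf1 in 27 of 32, Bbc3 in 21 of 31 and Ei24 in 20 of 32. Without irradiated Panc02-SIY replicate 3, Bbc3, Aen, Ei24 and Apaf1 did not pass in NK cells, with log2 fold changes of 0.99, 0.76, 0.58 and 0.70.

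In the other 4 classes of Panc02-SIY no member passed by edgeR, and none by DESeq2. Neutrophils had 94 to 354 barcodes per library, monocytes 30 to 241 and B cells 12 to 42. Whether the cells of these classes were in the tumor during irradiation was not tested. The paper proposes that tumor monocytes are soon replaced by new arrivals, and it calls neutrophils short-lived. From a rise of Cdkn1a, it also proposes that its conventional dendritic cells were probably present in the tumor when radiation was given. Conventional dendritic cells (cDC) had 7 members tested, with 27 to 98 barcodes per library, and all 7 fold changes were above 1, from 0.12 to 1.29 on the log2 scale (0.426% of genes were called; 4 of the 7 members, Bax, Bbc3, Aen and Apaf1, had an unadjusted p below 0.05). In cDCs Bbc3 had 2.49, 3.35, 6.43 and 15.5 CPM untreated and 13.2, 16.1, 16.97 and 32.6 CPM irradiated (1.29 ± 0.49, edgeR adjusted p = 0.365), and Apaf1 had 39.3, 40.2, 66.5 and 122 and 114, 122, 142 and 159.6 CPM (1.06 ± 0.32, edgeR adjusted p = 0.235). Apaf1 was called in cDCs in 2 of 32 alternative settings, with no filter on low counts (1.06, adjusted p = 0.00208 by edgeR) and without untreated Panc02-SIY replicate 1 (1.46, adjusted p = 0.00776). Neutrophils also had 7 of 7 fold changes above 1 (0.0255% of genes were called; Ei24 and Apaf1 had an unadjusted p below 0.05), the largest that of Ei24 (1.28 ± 0.42, edgeR adjusted p = 0.378). Monocytes had 5 of 7 above 1 (0.381% of genes called; Bax and Ei24 at an unadjusted p below 0.05) and B cells 2 of 4 (0% called; none of the 4). Bax, tested in all 7 classes, had 0.33 ± 0.14 (edgeR adjusted p = 0.514) in monocytes, 0.32 ± 0.20 (edgeR adjusted p = 0.736) in neutrophils and 0.14 ± 0.45 (edgeR adjusted p = 0.976) in B cells. An unadjusted p below 0.05 was also held by 932 of 9859 genes in cDCs, 639 of 7847 in neutrophils, 807 of 8927 in monocytes and 372 of 4724 in B cells. Over the 7 classes, 16 of 50 gene and class pairs passed and 46 of 50 were above 1. Of all genes tested, at most 2.36% rose in any of these classes, and their median log2 fold change per class ran from −0.008 to 0.044.

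**Figure D3:**
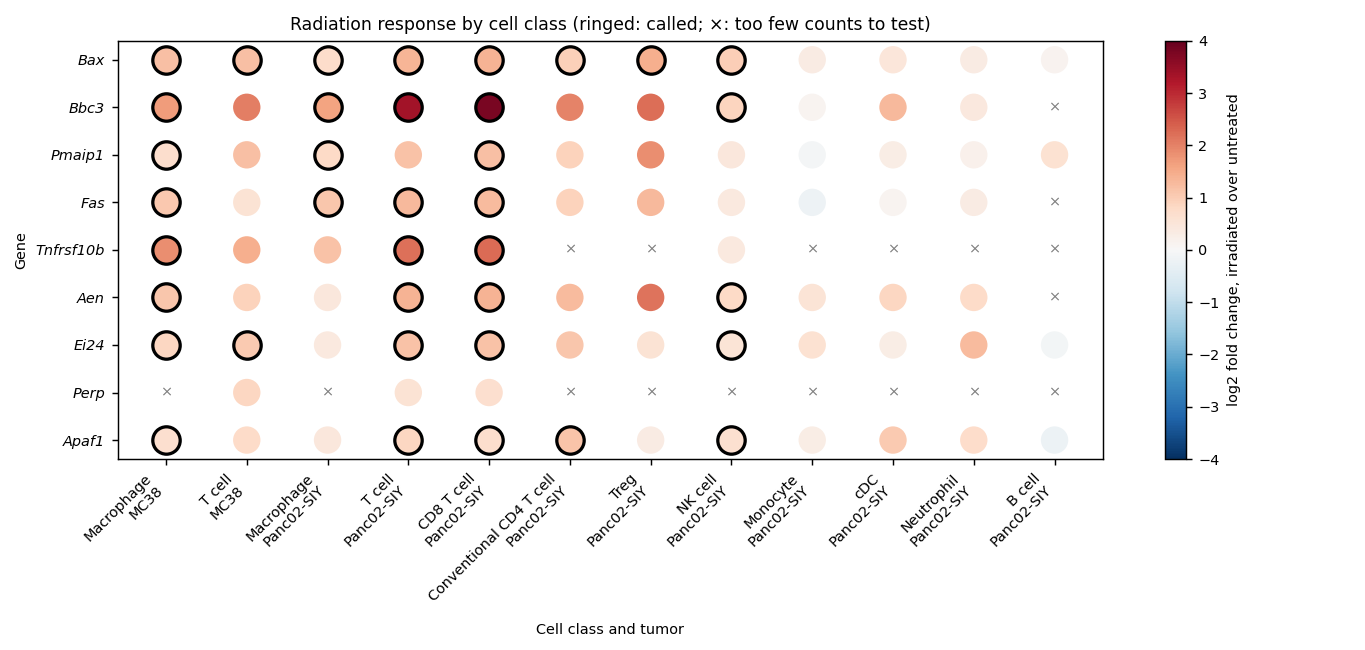
Radiation response of 9 of the genes (rows) in 12 combinations of cell class and tumor (columns), with color for the log2 fold change, irradiated over untreated (−4 to 4), black rings for pairs that passed the test and crosses for pairs with too few counts. Rings mark all 8 tested genes in MC38 macrophages, 7 of 9 in Panc02-SIY T cells and 8 of 9 in CD8 T cells, and none in monocytes, cDCs, neutrophils and B cells.

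The difference between the lymphoid classes (T, NK and B cells) and the myeloid classes (neutrophils, monocytes, macrophages and cDCs) was tested in 1 fit with the library as a block. Each side is a sum over its classes, whose mean shares differed between untreated and irradiated Panc02-SIY libraries. The part of these shares in the differences was not tested. In Panc02-SIY the lymphoid response minus the myeloid response was 1.43 ± 0.35 (edgeR adjusted p = 0.115) for Bbc3 and 0.61 ± 0.18 (edgeR adjusted p = 0.208) for Bax, and 8 of 9 differences were above 0. None of the 9 passed (0.131% of genes did), with Bax, Bbc3, Aen and Ei24 at an unadjusted p below 0.05, as were 1110 of 13769 genes. Other settings called up to 4 members, Bbc3 in 13 of 29 settings and Bax in 5 of 30, DESeq2 among the latter. In MC38 none passed either, with 4 of 9 differences above 0 (0.0145% of genes passed; no member had an unadjusted p below 0.05 or passed by DESeq2).

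The levels of each gene had a class order of their own, described here within Panc02-SIY and only within a gene. This order in CPM is not an order of UMIs per barcode. Untreated neutrophils held 588 Pmaip1 UMIs in 673 barcodes, cDCs 581 in 226 and monocytes 278 in 188. Of Fas, these untreated neutrophils held 227 UMIs and the monocytes 77. Pmaip1 was highest in neutrophils, 339 ± 79.2 CPM untreated (mean ± SD over libraries, n = 4), then in cDCs (198 ± 54.03) and monocytes (159.6 ± 17.8), whose ranges overlap in that order. A gap followed to B cells, macrophages and T cells (46.2, 38.8 and 36.4 CPM), which overlap, and NK cells were lowest (12.4 ± 4.35). Fas was highest in neutrophils as well, 120.2 ± 18.99 CPM untreated and 149 ± 21.9 CPM irradiated, above every library of the next class, monocytes (38.4 ± 26.8 and 37.7 ± 7.57). The other classes were at 22.5 CPM or less untreated and their neighbors overlapped. Perp was highest in T cells, above every library of the next class, with 15.1 ± 2.24 CPM in untreated T cells, against 1.96 ± 1.12 in NK cells and a mean below 1 CPM in each of the other 5 classes.

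Aen had a class order that was set apart after 12 Gy. Untreated, it was 24.2 ± 3.18 CPM in NK cells, 23.9 ± 3.04 in T cells and 23.2 ± 7.68 in macrophages, which overlap. Irradiated, T cells (64.1 ± 4.45) stood above NK cells (42.6 ± 3.04), and these above macrophages (25.2 ± 3.28), with no overlap between these neighbors. Ei24 overlapped between untreated T cells (46.5 ± 3.08) and NK cells (46.3 ± 4.18), and both lay above untreated cDCs (36.3 ± 4.42). Irradiated, Ei24 had 104 ± 12.3 CPM in T cells, 67.8 ± 3.97 in NK cells and 42.2 ± 8.22 in cDCs, with no overlap between these neighbors. Bax had overlapping neighbors all along its order, from cDCs (179.5 ± 26.7) down to B cells (90.7 ± 43.3) untreated and from T cells (339 ± 30.9) down to B cells (95.8 ± 60.4) irradiated. Apaf1 was highest in monocytes untreated (92.98 ± 18.1) and in cDCs irradiated (135 ± 20.4), and those classes overlap each other in both groups. Bbc3 ran from 20.1 ± 6.83 CPM in monocytes to 2.63 ± 1.15 in T cells untreated, with overlapping neighbors throughout. Irradiated, Bbc3 had 28.6 ± 4.44 CPM in NK cells, 25.0 ± 3.42 in macrophages, 24.3 ± 5.54 in T cells and 23.8 ± 10.6 in monocytes. Neighbors overlapped all along that order too, down to B cells (10.02 ± 8.79). Tnfrsf10b means were at most 3.11 CPM in every untreated class, with 0 UMIs in untreated neutrophils.

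**Figure D4:**
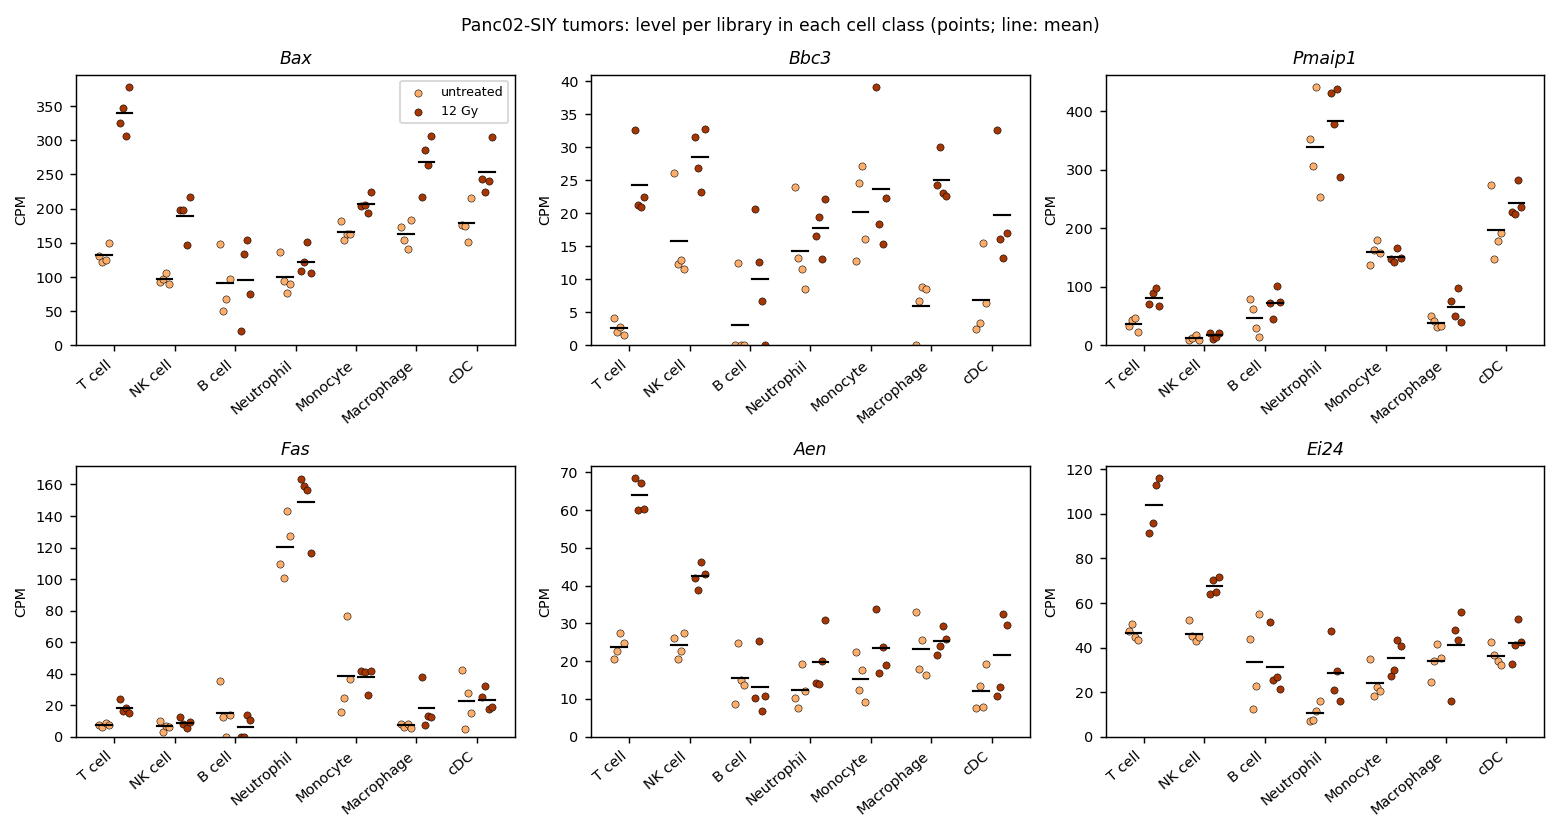
Level in CPM (vertical axes, linear) of 6 of the genes in 7 cell classes of Panc02-SIY, with 1 point per library, light for untreated and dark for irradiated, and a line at each mean. Pmaip1 and Fas are highest in neutrophils in both groups, and for Bax, Bbc3, Aen and Ei24 the gap in CPM between the group means is widest in T cells.

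The arrest, repair and feedback arm of the same pathway was followed as a list of 19 genes. Of these, 13 rose and 0 fell in MC38 (median log2 fold change 1.03), and 11 rose and 0 fell in Panc02-SIY (0.67). Cdkn1a, the cyclin-dependent kinase inhibitor p21, rose by 1.92 ± 0.15 in MC38 and 2.88 ± 0.16 in Panc02-SIY on the log2 scale. Ccng1 (cyclin G1) rose by 2.35 ± 0.11 and 1.75 ± 0.11, Phlda3, an inhibitor of Akt, by 4.04 ± 0.42 and 2.29 ± 0.35, and Zmat3, an RNA-binding protein, by 2.46 ± 0.19 and 1.34 ± 0.16. The rises of Cdkn1a, Ccng1, Phlda3 and Zmat3 in MC38 each exceeded that of any of the 9 death genes tested by point estimate. In Panc02-SIY those of Cdkn1a and Phlda3 did, while Ccng1 and Zmat3 lay below Bbc3 (1.81). The list was written with earlier results of these libraries known, so its direction is not independent evidence.

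Among 9 genes of p53 and its regulators, 2 rose in both tumors, the inhibitors Mdm2 and Mdm4. Mdm2 rose by 1.62 ± 0.14 in MC38 and 0.68 ± 0.13 in Panc02-SIY, and Mdm4 by 1.37 ± 0.11 and 0.87 ± 0.11. The mRNA of p53 itself, Trp53, fell in both (−0.39 ± 0.09, edgeR adjusted p = 0.0164, and −0.40 ± 0.09, edgeR adjusted p = 0.00693), as did that of the checkpoint kinase Chek1 (−1.16 ± 0.37, edgeR adjusted p = 0.0593, and −1.34 ± 0.28, edgeR adjusted p = 0.0053). Atm, the kinase that senses double-strand breaks, passed as lower in Panc02-SIY alone (−0.39 ± 0.13, edgeR adjusted p = 0.0613), with −0.42 ± 0.17 (edgeR adjusted p = 0.121) in MC38. With all barcodes kept, Trp53 and Chek1 did not pass in MC38. In each class of Panc02-SIY tested, 0 genes of this list passed as lower, and 1 did in its CD8 T cells. In MC38, 2 passed as lower in macrophages and 0 in T cells. The part of the class shares in these falls was not tested. The median over the 9 genes was −0.10 in MC38 and −0.01 in Panc02-SIY.

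Of 13 other BCL2 family genes, 12 were tested, and 4 rose in MC38 (median 0.22) and 3 in Panc02-SIY (0.08). The 3 that rose in both are guardians against apoptosis: Bcl2 (0.81 ± 0.17 and 0.47 ± 0.16), Bcl2l1, which encodes BCL-XL (0.50 ± 0.10 and 0.56 ± 0.10), and Mcl1 (0.51 ± 0.10 and 0.51 ± 0.10). The BH3-only gene Bcl2l11, which encodes BIM, rose in MC38 (0.61 ± 0.14). Of 8 downstream mitochondrial effectors (Cycs, the caspases 3, 6, 7 and 9, Diablo, Htra2 and Xiap), the inhibitor Xiap rose in MC38 (0.41 ± 0.08), and none of the 8 passed in Panc02-SIY, where the list's median was −0.02. There Xiap alone had an unadjusted p below 0.05 (0.26 ± 0.07, edgeR adjusted p = 0.0257), with a fold change under 1.3. Of 9 death receptor pathway genes, 8 were tested, Cflar, which encodes the caspase-8 inhibitor FLIP, rose in MC38 (0.49 ± 0.12) and the adaptor Tradd fell in Panc02-SIY (−0.41 ± 0.11). With all barcodes kept, the MC38 calls for Mcl1, Xiap and Cflar were lost.

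**Figure D5:**
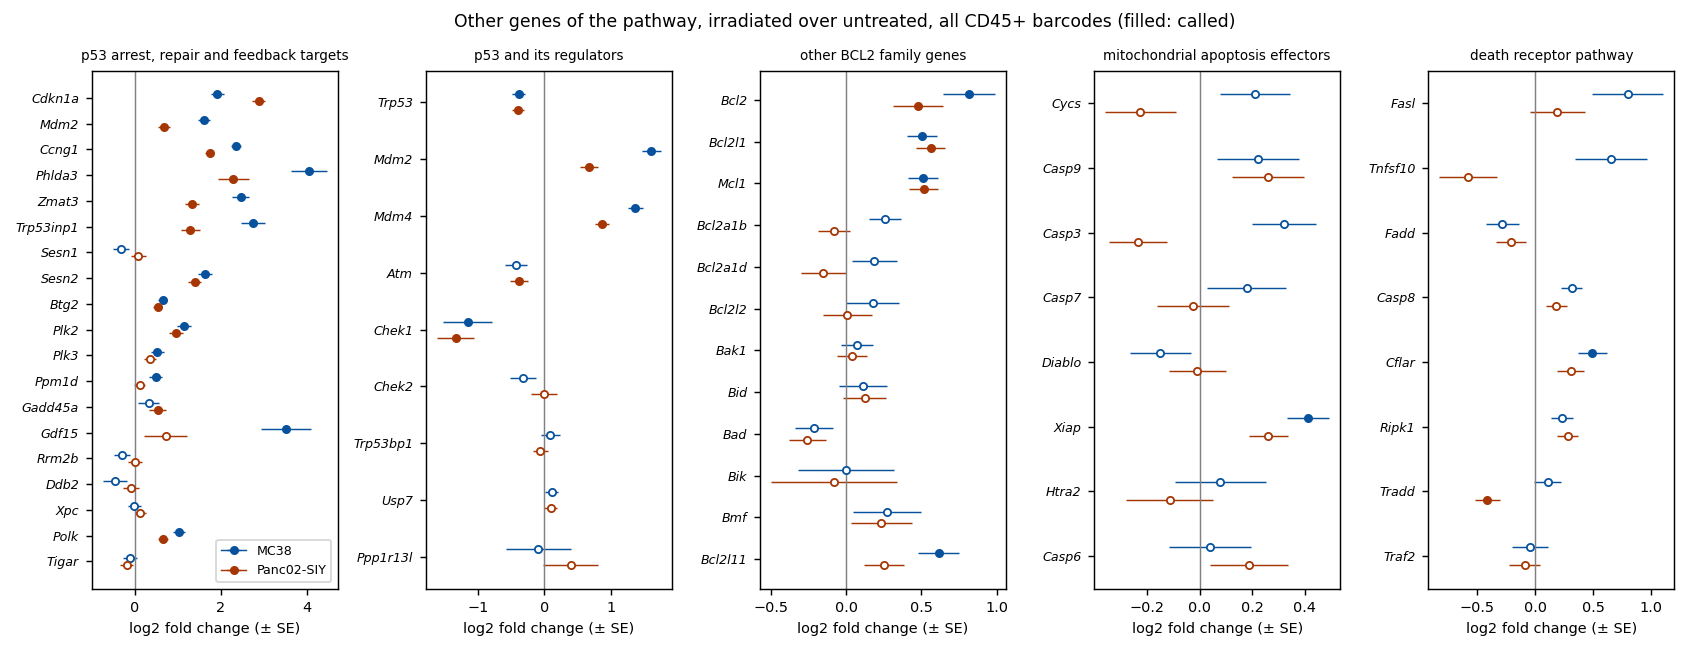
Log2 fold change, irradiated over untreated, ± SE (horizontal axes, scaled per panel) of the other genes of the pathway in all CD45+ barcodes, in 5 lists, with blue for MC38, red-brown for Panc02-SIY and filled points for genes that passed the test. In the first panel 13 MC38 and 11 Panc02-SIY points are filled and lie right of 0, while in the mitochondrial effector panel 1 point, Xiap of MC38, is filled.

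Of the Panc02-SIY classes without a called member, monocytes, neutrophils and cDCs had single genes of the arrest and feedback list that did pass. In B cells 0 of the 10 tested did. Monocytes had Cdkn1a (0.78 ± 0.16, edgeR adjusted p = 0.0563) and neutrophils had Cdkn1a (1.53 ± 0.25, edgeR adjusted p = 0.0791). The cDCs had Phlda3 (3.94 ± 0.64, edgeR adjusted p = 0.018), Sesn2 (1.96 ± 0.33, edgeR adjusted p = 0.018), Cdkn1a (2.13 ± 0.41, edgeR adjusted p = 0.0865) and Ccng1 (1.11 ± 0.24, edgeR adjusted p = 0.056), and of the other lists Bcl2 (1.84 ± 0.34, edgeR adjusted p = 0.0376). In T cells of Panc02-SIY, Cdkn1a rose by 3.48 ± 0.33 and Phlda3 by 5.05 ± 0.31, and in its macrophages by 3.63 ± 0.20 and 3.69 ± 0.36. Whether these genes and the death genes differ in their class pattern was not tested.

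The ligands of the member receptors, named here after their values were seen, were read in the same classes. Fasl had 161 ± 5.05 CPM in untreated and 203 ± 37.4 CPM in irradiated T cells of Panc02-SIY (mean ± SD, n = 4), and 218 ± 12.9 and 317 ± 20.7 CPM in NK cells. It rose in NK cells (0.54 ± 0.10, edgeR adjusted p = 0.00625) and in CD8 T cells (0.39 ± 0.10, edgeR adjusted p = 0.0406), and Fas itself did not pass in NK cells (0.39 ± 0.38, edgeR adjusted p = 0.702). Tnfsf10, the ligand of Tnfrsf10b, had 58.5 ± 13.8 and 35.6 ± 11.7 CPM in NK cells and 70.2 ± 21.3 and 55.5 ± 11.3 CPM in T cells of Panc02-SIY (−0.66 ± 0.22, edgeR adjusted p = 0.142 and −0.33 ± 0.28, edgeR adjusted p = 0.612). Eda, the ligand gene of Eda2r, was listed at 0 in T cells, NK cells and macrophages of every group they were tested in.

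For each member the genes with the most similar profile were sought over 19 units, each the mean of 1 class in 1 group, by Pearson's r of the log2 CPM. The units share libraries and cell classes, so the values are descriptive. Bax was nearest to Phlda3 (0.84), Bbc3 to Cdkn1a (0.72) and Aen to Zmat3 (0.88), all of them p53 targets. Next came Cpped1 and Dcxr (0.80 each) for Bax, Phlda3 (0.68) and Esrra (0.67) for Bbc3, and Ei24 and Serpine2 (0.85 each) for Aen. Pmaip1 was nearest to Cd80 (0.97), Fas to Cd44 (0.92), Perp to Sv2c (0.91), Ei24 to Aaas (0.88), Tnfrsf10b to Exoc4 (0.85) and Apaf1 to Lims1 (0.82). For Tnfrsf10b the next genes were Mdm4 (0.83) and Epm2aip1 (0.82).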

How the data were processed

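The deposited values are raw UMI counts per barcode and gene, made by the authors with Cell Ranger 3.1.0 and bcl2fastq 2.20.0 on mm10, per the submitters' processing notes, from 10x 3′ version 3 libraries. Whole numbers and 31053 features were checked in each of the 16 matrices. An aggregated matrix was not used.

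Each barcode was kept in the library of its tumor with its most UMIs. Clustering (scanpy 1.11.5, Python 3.11.15; 2000 variable genes without the members and pathway genes, 30 principal components, 20 neighbors, Leiden resolution 1) gave 28 clusters. Names required at least 3 markers and a share of 0.5 of a marker list raised by a log2 fold above 1 (pseudocount 20 CPM), and the share was added after the clusters were seen. Clusters stayed unnamed on a tie, when another class led their 10 top genes, or with median UMIs under 0.333 of the library's and no own marker leading. Scrublet's automatic threshold marked 82 barcodes (0.395%), so no doublets were removed here, and the top 5% were removed as an alternative.

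Counts were summed per library over all CD45+ barcodes and over classes (libraries with at least 10 barcodes, groups with at least 3 such libraries). They were tested with edgeR 4.0.16 in R 4.3.3 (TMM, filterByExpr with a minimum count of 10, or 3 in classes, and a total of 15, robust quasi-likelihood F tests over all 4 groups, Benjamini-Hochberg adjustment). Calls needed an adjusted p below 0.1 and a fold above 1.3. On simulated counts for the Panc02-SIY comparison, 95% of genes changed by log2 1 were recovered over all CD45+ barcodes, 98% in T cells and 86% in macrophages, with 9.3%, 9.17% and 6.53% false among the calls. The changed genes were drawn only from genes above a floor on expected counts, and all genes were given the same dispersion. These shares therefore do not extend to members with few UMIs or a wider spread between libraries.

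Settings were varied with DESeq2 1.42.0, with RLE or no scaling factors, with other filters, thresholds and class settings, by thinning, with a replicate block and by leaving out each library. In the fits with a library left out, a group was allowed fewer libraries than in the main fits. Replicate numbers were not used as pairs in the main fits. Deviations of same-numbered libraries correlated above 0.1 in 7 of 24 pairs (−0.17 to 0.79). Of pairs with different numbers, 12 of 72 did (−0.69 to 0.31). Between untreated and irradiated Panc02-SIY, the same-numbered values were 0.47, −0.17, 0.34 and 0.79 for replicates 1 to 4. What the shared numbers stand for was not tested. The members, gene lists and the rule for named genes (all members, up to 8 genes per list called over all CD45+ barcodes and the 3 nearest genes by correlation) were chosen with earlier results of these data known. Intervals on counts cover counting error only.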

Additional observations from a re-analysis of the deposited data

Results flagged for a closer look

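In 136 groups of 4 libraries with at least 40 UMIs of a member, 11 held a library whose gap to the nearest of the others passed Dixon's 95% critical value. Chance alone flags about 1 in 20 groups.

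Over all CD45+ barcodes, untreated MC38 replicate 3 was high for Bax (266 CPM, the others 215 to 218) and for Pmaip1 (89.7 CPM, the others 61.0 to 64.8), and it was high for Bax in macrophages too (269.5 CPM, the others 215 to 220.3). Untreated Panc02-SIY replicate 4 was high for Bax over all barcodes (140.3 CPM, the others 109 to 113). Irradiated MC38 replicate 2 was high for Ei24 (107 CPM, the others 76.9 to 79.3).

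Within classes, Apaf1 was low in macrophages of untreated MC38 replicate 1 (23.7 CPM, the others 28.7 to 29.4) and high in macrophages of irradiated Panc02-SIY replicate 1 (70.3 CPM, the others 42.6 to 45.0). Bbc3 was high in NK cells of untreated Panc02-SIY replicate 1 (26.2 CPM, the others 11.5 to 12.9) and in T cells of irradiated Panc02-SIY replicate 1 (32.6 CPM, the others 21.0 to 22.5). Fas was low in monocytes of irradiated Panc02-SIY replicate 3 (26.4 CPM, the others 41.2 to 41.7) and in neutrophils of irradiated Panc02-SIY replicate 4 (116 CPM, the others 157 to 164).

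No member's radiation response differed between the tumors by edgeR, but that of 3 genes of the arrest and feedback list did over all CD45+ barcodes. The MC38 response minus the Panc02-SIY response was 0.94 for Mdm2 (edgeR adjusted p = 0.0776), −0.96 for Cdkn1a (adjusted p = 0.0951) and 1.12 for Zmat3 (adjusted p = 0.0951) on the log2 scale. These calls were lost in 13, 15 and 21 of 33 alternative settings, with the sign kept in each.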

How the results depend on the processing

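Over all CD45+ barcodes, the count of members that rose was 8 to 9 in MC38 and 8 in Panc02-SIY with each library left out in turn, and no other setting moved it by more than 1.5 times. The ninth was Perp without untreated MC38 replicate 1 (edgeR adjusted p = 0.0983), and the count in MC38 fell to 7 with all barcodes kept (Pmaip1 lost) and with thinning (Fas lost, adjusted p = 0.109). Bbc3 was called in 32 of 32 settings in each tumor, with log2 fold changes of 1.22 to 1.86 in MC38 and 1.72 to 1.98 in Panc02-SIY, and in 32 of 32 in Panc02-SIY T cells (3.05 to 3.52). Members that differed between untreated tumors numbered 5 to 7, and between irradiated tumors 4 to 6, with a library left out, and 3 between irradiated tumors at a log2 fold change above 0.58. Pairs of member and class that rose in MC38 numbered 6 with thinning and 9 to 12 with a library left out. In Panc02-SIY they numbered 10 to 16 with a library left out, 10 of them without irradiated Panc02-SIY replicate 3. Pairs whose response differed between the tumors numbered 1 with 10 principal components (Bax in macrophages) and 0 with any library left out. The lymphoid against myeloid count in Panc02-SIY was 4 with all barcodes kept, 3 with library size alone, 2 with 10 principal components, and 1 each with RLE scaling, DESeq2, no filter on low counts, doublets removed, thinning, resolution 2 and the marker gate. With a library left out it was 0 to 2, 2 without untreated MC38 replicate 1, and in MC38 it was 0. The cause of these changes was not tested.

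Of the member values called in the main setting, those that reversed were all in macrophages. For Pmaip1 the Panc02-SIY response was −0.052 with all barcodes kept and −0.22 with 10 principal components, the difference between untreated tumors −0.95 and −0.86 in the same settings, and that between irradiated tumors −0.43 with all barcodes kept. For Fas the difference between untreated tumors was −0.041 with 10 principal components, and that between irradiated tumors −0.903 with all barcodes kept and −0.053 with 10 principal components. With the replicate block the counts were 8 and 8 for the radiation responses, 5 and 6 for the tumors, 9 and 17 for the class pairs and 0 for both interactions, and 1 call of a member was lost, that of Ei24 in MC38 T cells (1.03, adjusted p = 0.136). The lymphoid against myeloid fit has the library as its block, so no further pairing was possible there. Without the fibroblast-like barcodes, an alternative chosen after seeing the data, 8 members rose in each tumor, and between the tumors the calls for untreated Tnfrsf10b (−0.67, adjusted p = 0.111) and irradiated Pmaip1 (0.34, under a fold of 1.3) were lost and untreated Apaf1 (−0.47) was called. MC38 T cells, with 10 to 41 barcodes per library, limit what can be seen there.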
